A study of Mus musculus with 2 samples.

Results

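The potassium channel genes of the mouse are described here in the embryonic forebrain. They were chosen by symbol alone, as every gene of the deposited lists whose symbol starts with *Kcn* followed by a family letter and a number. Of 98 matching entries, 5 antisense or overlapping non-coding entries and 1 further gene that is not reported here were left out, which left 92 genes of the 28001 listed for septal explants and of the 32286 listed for the telencephalic vesicle. A minimum of 50 unique molecular identifiers (UMIs, each tagging 1 captured transcript molecule) over a library was met by 38 of the 92 genes in the septal explants and by 58 in the telencephalic vesicle. No UMI was found for 10 genes in the former and for 3 in the latter. Just inside this minimum were *Kcnk13* and *Kcnt2* with 61 UMIs each in the septal explants, and *Kcnj11* with 60 and *Kcna3* with 63 in the telencephalic vesicle. Just outside were *Kcnj5* with 47 and *Kcnma1* with 44, and *Kcnv1* with 47 and *Kcnj8* with 45, respectively.

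Potassium channels let potassium leave or enter a cell along its gradient and so set the resting potential, end action potentials and shape firing. Pore subunits of the voltage-gated, inward rectifier, tandem-pore and calcium-activated families form the conducting channel, modifier subunits assemble only with other pore subunits, and auxiliary subunits change gating or transport of a channel to the membrane. In the developing telencephalon, dividing apical progenitors (APs) lining the ventricle give rise to basal progenitors (BPs) and neurons, and neurons acquire excitability as they differentiate, whereas progenitors are known for a negative resting potential carried by leak and inward rectifier channels.

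The data were 2 droplet single cell RNA libraries. The septal explants were pooled from 8 E11.5 embryos carrying PGKCre and Rosa26YFP and 4 E12.5 embryos carrying Dbx1Cre and Rosa26tdTomato, of 2 litters each, where PGK drives Cre in all cells and Dbx1 in the lineage of *Dbx1*-expressing progenitors. The labels call the sample wild-type, on a C57BL/6J background, although each of its embryos carries a Cre driver and a reporter. The telencephalic vesicle library was pooled from 3 wild-type embryos of 2 litters, which the labels place at E12 and the study at E11.5 to E12. Embryos cannot be told apart within a library, so each tissue is 1 sample without replicates, and no test was possible. Intervals given below are exact 95% intervals (Poisson for sums, Clopper-Pearson for shares, conditional binomial for ratios of summed counts), apart from the limits at a count of 0, which are 3 counts of the total, and they cover counting error only.

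The septal explants held 5827 barcodes and 83103280 UMIs (median 12722 per barcode, from 3902 to 84281), and the telencephalic vesicle held 14283 barcodes and 194821794 UMIs (median 8503, from 500 to 207131), with 1 barcode shared between them. After filters on mitochondrial share and doublets, 5387 and 11851 cells were kept. Doublet calls were few, 1.05% against an expected 4.66% in the septal explants and 4.97% against 11.4% in the telencephalic vesicle, so undetected doublets remain possible. Clusters were made without any potassium channel gene and were named from marker genes as AP-like, BP-like, neuron-like or non-neural (described with the processing). This gave 3271 AP-like and 1039 neuron-like cells in the septal explants (median 14273 and 11385 UMIs) and 5829 and 1736 in the telencephalic vesicle (median 11026 and 6790 UMIs). Erythroid-like, mesenchyme-like, macrophage-like and endothelial-like cells were kept apart, and so were hem-like cells, named from *Wnt*, *Rspo* and other genes of the cortical hem and from *Ttr*. The 2 libraries differ in kit, counting software, dissection and age, so levels were compared only within a library. Among the 11 channel genes that span over 200 kb and passed the minimum in both, the median level in CPM (UMIs of a gene per 1000000 UMIs of all genes) was 6.73 times higher in the telencephalic vesicle than in the septal explants. For the 6 under 20 kb it was 0.767 times as high. The same ratios over all genes were 6.89 for 747 long genes and 0.762 for 5753 short genes, and their source was not tested.

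Promoter windows were taken from RefSeq (GRCm38.p6), as the 250 bases before the annotated start, for 67 of the 92 genes. They are shown for 3 genes that were higher in neurons than in APs in both libraries (*Kcnc1*, *Kcnh8* and *Kcnip2*) and for 2 that were lower in both (*Kcnj10* and *Kcnk1*), chosen by ratio among windows that lie outside the annotated gene. Capitals mark matches on either strand to 4 short sequences, CAGCTG and CAGATG (E-boxes of the kind that proneural factors bind), the GC box GGGCGG and the TATA box TATAAA. No marked base belongs to more than 1 of them.
Kcnc1, chr7:46396218-46396467, plus strand: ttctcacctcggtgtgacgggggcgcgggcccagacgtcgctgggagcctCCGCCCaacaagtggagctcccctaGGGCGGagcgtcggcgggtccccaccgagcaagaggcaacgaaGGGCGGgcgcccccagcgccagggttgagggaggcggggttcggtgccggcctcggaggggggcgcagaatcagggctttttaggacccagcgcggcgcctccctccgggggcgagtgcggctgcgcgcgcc
Kcnh8, chr17:52602459-52602708, plus strand: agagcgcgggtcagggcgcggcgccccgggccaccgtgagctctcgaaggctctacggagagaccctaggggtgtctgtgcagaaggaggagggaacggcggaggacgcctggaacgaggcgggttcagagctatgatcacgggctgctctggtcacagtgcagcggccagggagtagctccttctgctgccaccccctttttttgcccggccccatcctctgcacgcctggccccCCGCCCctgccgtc
Kcnip2, chr19:45816064-45816313, minus strand: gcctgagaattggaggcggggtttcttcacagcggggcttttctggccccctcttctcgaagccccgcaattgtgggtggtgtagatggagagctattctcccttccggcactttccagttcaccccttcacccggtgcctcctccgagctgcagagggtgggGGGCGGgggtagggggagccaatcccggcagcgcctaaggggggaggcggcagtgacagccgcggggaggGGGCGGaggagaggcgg
Kcnj10, chr1:172340960-172341209, plus strand: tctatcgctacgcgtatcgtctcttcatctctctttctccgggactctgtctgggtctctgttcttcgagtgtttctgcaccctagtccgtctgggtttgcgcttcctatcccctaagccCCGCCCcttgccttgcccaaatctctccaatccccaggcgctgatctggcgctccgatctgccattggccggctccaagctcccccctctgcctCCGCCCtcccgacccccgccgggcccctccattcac
Kcnk1, chr8:125994852-125995101, plus strand: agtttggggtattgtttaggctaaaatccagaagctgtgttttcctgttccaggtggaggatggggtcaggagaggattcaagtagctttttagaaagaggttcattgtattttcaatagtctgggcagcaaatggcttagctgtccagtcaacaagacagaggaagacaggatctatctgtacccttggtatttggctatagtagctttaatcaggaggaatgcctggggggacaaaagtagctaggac
The only matches in these windows were GC boxes, 3 in *Kcnc1*, 1 in *Kcnh8*, 2 in *Kcnip2* and 2 in *Kcnj10*, and the *Kcnk1* window held no match. A GC box was present in 45.1% of the 91 windows of the channel genes and in 32.7% of all 32851 windows. It was present in 60% of the 15 windows of genes higher in neurons in both libraries and in 66.7% of the 3 windows of genes lower in both, so it did not separate these small groups. CAGCTG was present in 24.2% of the channel gene windows against 13.0% of all windows, and TATAAA in 3.30% against 12.4%. A match is a stretch of letters and was not taken as a bound site.

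The levels of the channel genes in neurons were set against those in APs within each library. In the septal explants, 22 of the 38 genes were at least 2-fold higher in neurons with a counting interval that left out 1, which is 57.9% against 18.1% of all 13163 genes with as many UMIs. Another 5 were at least 2-fold lower (13.2% against 16.3% of all genes), and 11 were neither. In the telencephalic vesicle, 29 of 58 were higher (50% against 17.9% of all 16900 genes), 8 were lower (13.8% against 17%) and 21 were neither. The median log2 ratio of CPM + 1, neurons over APs, was 0.82 over the channel genes and 0.05 over all genes in the septal explants, and 0.58 and -0.03 in the telencephalic vesicle. Of 36 genes that passed the minimum in both libraries, 17 were higher in both, 4 were lower in both (among them *Kcnj10*, *Kcnk5* and *Kcnk1*), 8 were neither in both, and none was higher in one and lower in the other. The share of all genes called alike in both libraries is not given here, so whether channel genes differ from other genes in this was not determined. With Cajal-Retzius-like cells left out of the neurons, 19 of 38 and 27 of 58 channel genes were higher, against 2216 of 13163 and 2904 of 16900 of all genes.

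**Figure D1:**
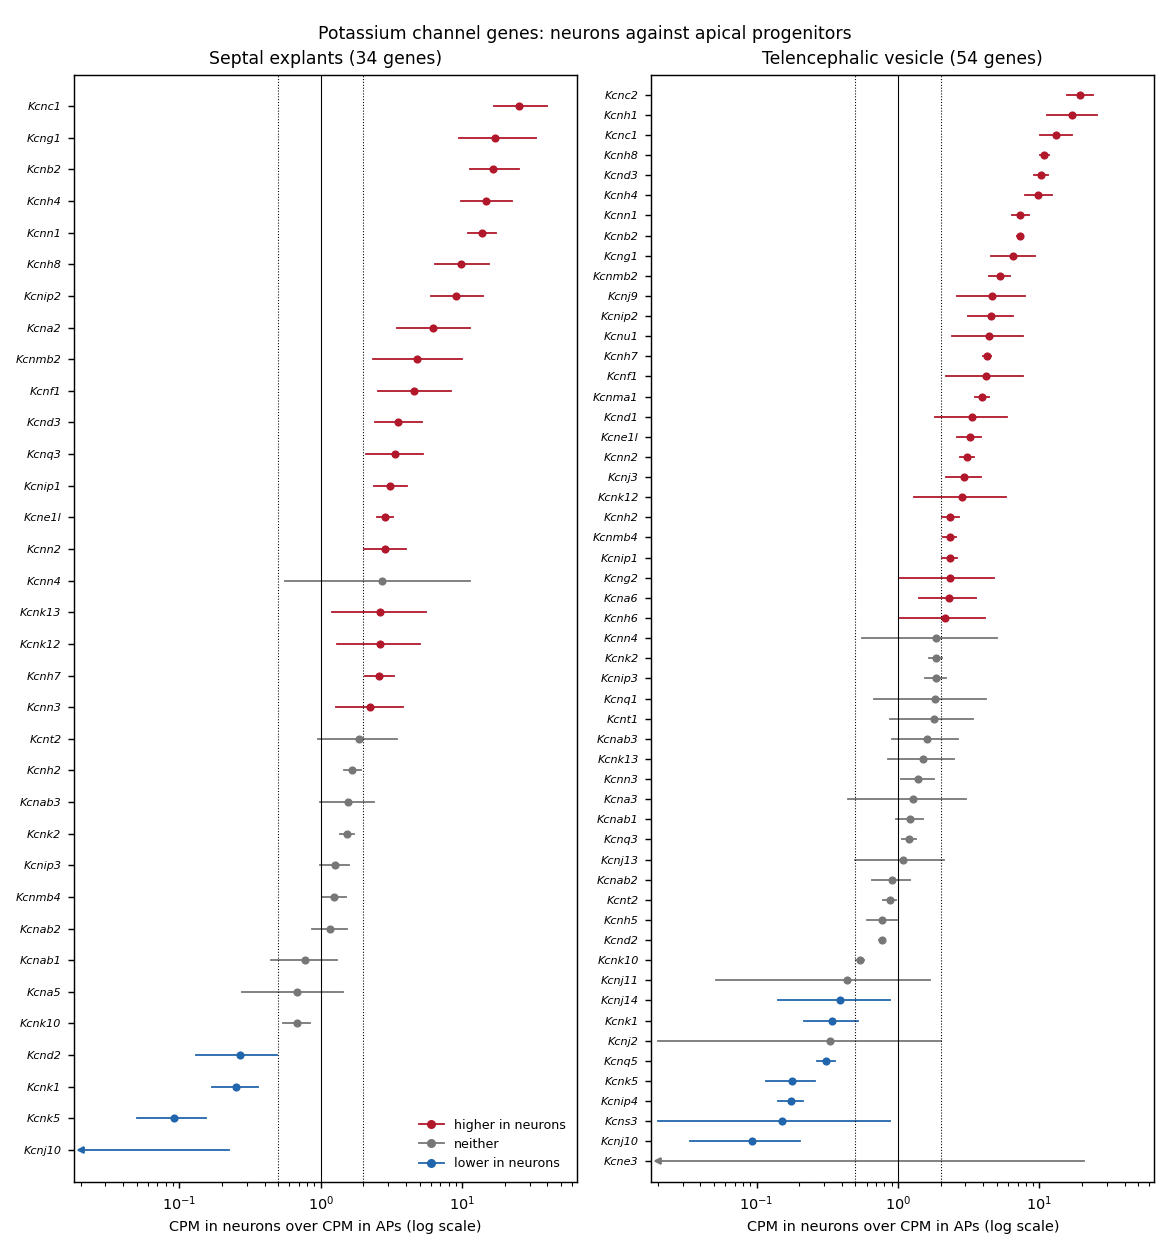
Ratio of CPM in neuron-like over AP-like cells on a log axis, for 34 channel genes with at least 50 UMIs in septal explants and 54 in the telencephalic vesicle, with points coloured by call and bars for the exact 95% counting interval. Of those drawn, 19 genes of the septal explants lie at or above 2 and 4 at or below 0.5 with intervals that leave out 1, those of the telencephalic vesicle number 27 and 7, and *Kcnj10*, with 0 UMIs in neurons of the septal explants, is drawn at the edge.

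Voltage-gated pore subunits of the *Kcna*, *Kcnb*, *Kcnc* and *Kcnd* families form the delayed rectifier and A-type channels that repolarise action potentials. Of these, 5 of 8 in the septal explants were higher in neurons, 2 lower and 1 neither, and in the telencephalic vesicle 6 of 10 were higher, 1 lower and 3 neither. This and each later count of a family stands against 18.1% of all genes higher and 16.3% lower in the septal explants, and 17.9% and 17% in the telencephalic vesicle. *Kcnc1*, a fast delayed rectifier (Kv3.1) of rapidly firing neurons, had 27 UMIs in APs (0.523 CPM, 0.344 to 0.761) and 168 in neurons (13.2 CPM, 11.3 to 15.4) of the septal explants. Its ratio of 25.3 (16.8 to 39.5) was the highest there. *Kcnc1* in the telencephalic vesicle stood at 0.826 CPM (0.668 to 1.01) in APs and 10.8 CPM (9.10 to 12.7) in neurons, a ratio of 13.1 (10.0 to 17.1). Neither the intervals of the septal explants nor those of the telencephalic vesicle overlapped between APs and neurons. *Kcnc2*, its relative Kv3.2, passed the minimum only in the telencephalic vesicle, with 1.09 CPM (0.904 to 1.29) in APs and 21.1 CPM (18.7 to 23.7) in neurons, the highest ratio of that library at 19.4 (15.6 to 24.1).

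*Kcnb2*, which encodes the delayed rectifier Kv2.2, stood at 0.639 CPM (0.440 to 0.897) in APs and 10.6 (8.91 to 12.6) in neurons of the septal explants, a ratio of 16.6 (11.3 to 25.1), and at 27.6 (26.6 to 28.6) and 200.4 CPM (192.9 to 208.1) in the telencephalic vesicle, a ratio of 7.26 (6.90 to 7.65). The gene overlaps 2 other annotated genes on its strand, and the assignment of shared reads was not tested.

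Over all neurons, the A-type channel genes *Kcnd2* (Kv4.2) and *Kcnd3* (Kv4.3) parted. *Kcnd3* was 3.53 times higher (2.40 to 5.19) in neurons of the septal explants and 10.2 times (9.11 to 11.496) in the telencephalic vesicle. *Kcnd2* stood at 3.25 CPM (2.78 to 3.78) in APs and 0.866 (0.432 to 1.55) in neurons of the septal explants, a ratio of 0.266 (0.130 to 0.489). It had the most UMIs of all channel genes in the telencephalic vesicle, 42048, with 275.9 CPM (272.9 to 279.0) in APs and 211.8 (204.1 to 219.7) in neurons, a ratio of 0.768 (0.738 to 0.798) that was not called. That ratio pools unlike neurons, since GABAergic-like neurons lay above APs and the other neurons below (levels are given with the neuron types). *Kcnd2* spans 514 kb of chromosome 6 (21215503 to 21729805, GRCm38) and overlaps 3 other genes on its strand. Among the remaining pore genes, *Kcna2* was 6.19 times higher (3.46 to 11.3) in neurons of the septal explants, and *Kcna6* 2.28 times (1.40 to 3.57) and *Kcnd1* 3.35 times (1.83 to 5.89) in the telencephalic vesicle. The *Kcna6* ratio was no longer called with doublets kept (1.9998, 1.31 to 2.99), after thinning (1.95, 0.803 to 4.45) or without Cajal-Retzius-like cells (1.84, 1.05 to 3.08). *Kcna5* at 0.677 (0.277 to 1.44) in the septal explants and *Kcna3* at 1.28 (0.445 to 3.05) in the telencephalic vesicle had intervals across 1.

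Modifier subunits conduct only within heteromers, in particular with Kv2 pores. *Kcng1* was 17.1 times higher (9.45 to 33.2) in neurons of the septal explants and 6.53 times (4.56 to 9.31) in the telencephalic vesicle. *Kcnf1* was 4.57 times (2.54 to 8.28) and 4.16 times higher (2.18 to 7.62). *Kcng2* was 2.31 times higher (1.03 to 4.74) in the telencephalic vesicle on 10 UMIs in neurons, and *Kcns3* was lower, with 57 UMIs in APs and 1 in neurons (ratio 0.150, 0.00374 to 0.871). This call was lost by the mean of CPM over cells (0.194, 0.00484 to 1.13) and after thinning (0.292, 0.00683 to 1.97).

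KCNQ channels carry the M-current that restrains repetitive firing. *Kcnq3* was 3.34 times higher (2.1 to 5.28) in neurons of the septal explants. It had 23.7 CPM (22.8 to 24.6) in APs and 28.3 (25.6 to 31.3) in neurons of the telencephalic vesicle, a ratio of 1.19 (1.07 to 1.33). *Kcnq5* was lower in neurons there, from 46.5 CPM (45.3 to 47.8) to 14.5 (12.54 to 16.7), a ratio of 0.312 (0.269 to 0.360). *Kcnq5* had 9 UMIs in all of the septal explants, so the same comparison was not made there.

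The *Kcnh* genes encode the EAG, ERG and ELK channels. Of these, 3 of 4 were higher in neurons of the septal explants and 6 of 7 in those of the telencephalic vesicle, and none was lower. Among the ELK genes, *Kcnh4* was 14.7 times higher (9.79 to 22.6) in neurons of the septal explants and 9.84 times (7.95 to 12.2) in the telencephalic vesicle, and *Kcnh8* 9.83 times (6.39 to 15.5) and 10.8 times (10.0 to 11.6). Of the ERG genes, *Kcnh7* was 2.60 times (2.06 to 3.27) and 4.26 times higher (4.0 to 4.54), and *Kcnh2* 1.67 times (1.45 to 1.93) and 2.34 times (2.03 to 2.68), so *Kcnh2* lay on either side of the 2-fold limit. It passed the limit in the septal explants with coarser clusters (2.01, 1.76 to 2.29) and with classes cut by the differentiation axis alone (2.77, 2.33 to 3.31), and missed it in the telencephalic vesicle by the mean of CPM over cells (1.996, 1.74 to 2.29). The EAG gene *Kcnh1* went from 39 UMIs in APs (0.339 CPM) to 77 in neurons (5.73 CPM) there, a ratio of 16.9 (11.4 to 25.5), whereas its relative *Kcnh5* stood at 0.776 (0.601 to 0.989).

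Inward rectifiers hold the membrane near the potassium equilibrium potential. *Kcnj10* encodes Kir4.1, best known from astroglia. It had 69 UMIs in APs of the septal explants (1.34 CPM, 1.04 to 1.69) and 0 in neurons (0 CPM, 0 to 0.290), and the counting interval of the ratio ended at 0.223. It had 554 UMIs in APs of the telencephalic vesicle (4.82 CPM, 4.42 to 5.23) and 6 in neurons (0.446, 0.164 to 0.972), a ratio of 0.0927 (0.0339 to 0.203). APs and neurons were apart in both libraries. *Kcnj14* was lower as well (ratio 0.392, 0.141 to 0.876) on 6 UMIs in neurons of the telencephalic vesicle, but was no longer called with doublets kept (0.86, 0.508 to 1.38), with finer clusters (0.474, 0.187 to 1.004) or after thinning (0.219, 0.00522 to 1.41). The G protein-gated subunit genes *Kcnj3* and *Kcnj9* were 2.91 times (2.18 to 3.85) and 4.59 times higher (2.61 to 7.89) in neurons of the telencephalic vesicle. *Kcnj2*, *Kcnj11* and *Kcnj13* had intervals across 1. In all, 2 of 7 genes were higher, 2 lower and 3 neither there, and *Kcnj10* was the only gene of the family tested in the septal explants. The summed level of the family was 3.24 times higher (2.44 to 4.28) in neurons of the septal explants, from genes under the minimum. Of the 94 UMIs behind it in neurons, 47 were in Cajal-Retzius-like cells. In the telencephalic vesicle the summed ratio was 1.03 (0.855 to 1.24).

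Tandem-pore (K2P) channels carry leak currents and were the family whose summed level was lower in neurons in both libraries, 0.850 times (0.778 to 0.927) in the septal explants and 0.662 times (0.628 to 0.698) in the telencephalic vesicle. This did not hold for Cajal-Retzius-like neurons of the septal explants, at 90.3 CPM (79.1 to 102.6) against 57.4 (55.4 to 59.5) in APs, whereas the other neuron types there lay below APs. Of 6 genes, 2 were higher, 2 lower and 2 neither in the septal explants, and 1, 2 and 3 in the telencephalic vesicle. *Kcnk5* (TASK-2) stood at 12 CPM (11.1 to 13.0) in APs and 1.10 (0.602 to 1.85) in neurons of the septal explants, a ratio of 0.0919 (0.05 to 0.155). Its levels in the telencephalic vesicle were 11.7 (11.1 to 12.4) and 2.08 CPM (1.38 to 3.01), a ratio of 0.178 (0.117 to 0.258). *Kcnk1* (TWIK-1) was lower at 0.251 (0.171 to 0.357) and 0.342 (0.215 to 0.518). With doublets kept, *Kcnk1* in the telencephalic vesicle stood at 0.534 (0.398 to 0.706) and was no longer called. *Kcnk12* was 2.60 times (1.30 to 5.07) and 2.85 times higher (1.30 to 5.79). *Kcnk10* (TREK-2), the channel gene with the next most UMIs in the telencephalic vesicle (20344), was lower but within 2-fold, at 0.676 (0.544 to 0.834) and 0.539 (0.505 to 0.576), and passed the limit in the telencephalic vesicle after thinning (0.488, 0.436 to 0.546). *Kcnk2* (TREK-1), with the most UMIs of the septal explants (2023), was higher but within 2-fold, at 1.54 (1.37 to 1.72) and 1.85 (1.66 to 2.05).

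Calcium- and sodium-activated channels of the SK, BK and Slack families produce afterhyperpolarisations. *Kcnn1* (SK1) was 13.8 times higher (11 to 17.4) in neurons of the septal explants, from 1.90 CPM (1.54 to 2.31) to 26.1 (23.4 to 29.1), and 7.29 times (6.35 to 8.38) in the telencephalic vesicle. *Kcnn2* (SK2) was 2.84 times (2.0 to 3.99) and 3.08 times higher (2.74 to 3.45). *Kcnma1*, the BK pore gene, was 3.95 times higher (3.52 to 4.42) in the telencephalic vesicle. *Kcnu1*, which is not of the SK, BK or Slack families and was counted with this group by its symbol, was 4.39 times higher there (2.43 to 7.71). No gene of this group was lower in neurons, and *Kcnt2* had ratios of 1.86 (0.960 to 3.45) and 0.874 (0.789 to 0.967), with the former called after thinning (2.52, 1.03 to 5.97) and without Cajal-Retzius-like cells (2.04, 1.02 to 3.90). *Kcnn3* was 2.23 times higher (1.28 to 3.79) in the septal explants. It was not called without Cajal-Retzius-like cells (1.46, 0.700 to 2.83), after thinning (1.98, 0.912 to 4.15) or with classes cut by the differentiation axis alone (1.45, 0.775 to 2.64).

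Auxiliary subunits were mixed, with 4 of 9 higher and 5 neither in the septal explants, and 5 of 11 higher, 1 lower and 5 neither in the telencephalic vesicle. KChIP proteins bind Kv4 channels and raise their surface level. *Kcnip2* was 9.06 times (6.01 to 13.9) and 4.51 times higher (3.11 to 6.47) in neurons, and *Kcnip1* 3.11 times (2.38 to 4.04) and 2.32 times (2.05 to 2.61), the latter not called with doublets kept (1.76, 1.57 to 1.97). *Kcnip4* went the other way in the telencephalic vesicle, from 43.2 CPM (42.0 to 44.4) in APs to 7.51 (6.12 to 9.13) in neurons, a ratio of 0.174 (0.142 to 0.212). *Kcnip4* spans 1135 kb of chromosome 5 and overlaps 24 other genes on its strand, and it had 10 UMIs in the septal explants. The BK beta subunit gene *Kcnmb2* was 4.83 times (2.35 to 10.0) and 5.23 times higher (4.37 to 6.23). *Kcne1l* was 2.84 times higher (2.5 to 3.22) in neurons of the septal explants, but 0.996 times as high (0.809 to 1.22) once Cajal-Retzius-like cells were left out. It was 3.20 times higher in the telencephalic vesicle (2.63 to 3.88) with these cells and 2.30 times (1.81 to 2.89) without them. The beta subunit genes *Kcnab1*, *Kcnab2* and *Kcnab3* were neither higher nor lower in either library, with ratios from 0.778 to 1.60.

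**Figure D2:**
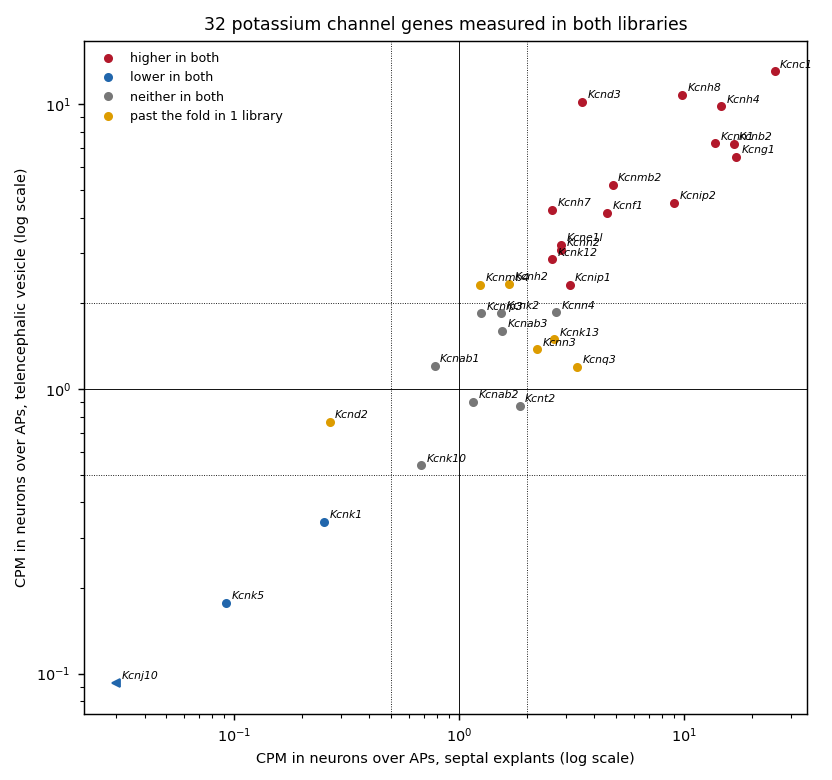
Ratio of CPM in neuron-like over AP-like cells in septal explants (horizontal, log axis) and in the telencephalic vesicle (vertical, log axis) for 32 genes with at least 50 UMIs in both, as 1 point per gene coloured by its calls. The 15 drawn genes higher in both lie at the upper right with *Kcnc1* at 25.3 and 13.1, the 3 lower in both at the lower left, and *Kcnj10*, at 0 in the septal explants, is an arrow at the left edge.

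Summed over all 92 genes, potassium channel transcripts made up 139.3 CPM (136.1 to 142.5) in APs and 292.8 CPM (283.5 to 302.4) in neurons of the septal explants, 2.1 times more (2.02 to 2.19). They made up 801.2 CPM (796.1 to 806.4) and 1285 CPM (1266 to 1304) in the telencephalic vesicle, 1.60 times more (1.58 to 1.63). After each cell was thinned to 8000 UMIs, with 511 shallower cells left out, an AP of the septal explants showed UMIs of 1.07 channel genes on average and a neuron of 2.01. No channel gene was seen in 34.1% of APs and 14.2% of neurons. At 3500 UMIs in the telencephalic vesicle, with 1150 cells left out, the means were 1.86 and 2.88 genes, and the shares without any were 15.2% and 6.83%. Unthinned cells showed 1.93 and 2.82 genes in the septal explants. Unthinned APs of the telencephalic vesicle showed more than neurons, 5.62 against 4.95, at median depths of 11026 and 6790 UMIs.

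The *Kcnh* family carried a summed ratio of 5.12 (4.92 to 5.34) in the telencephalic vesicle and 2.58 (2.32 to 2.86) in the septal explants. The voltage-gated pores had a summed ratio of 1.56 (1.52 to 1.60) in the telencephalic vesicle and 3.38 (3.01 to 3.79) in the septal explants. *Kcnd2* held most of their UMIs in APs of the telencephalic vesicle, but not in its neurons.

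Along differentiation, cells were ordered by log2 of neuronal over AP marker UMIs (11 and 9 genes, none of them a potassium channel) and split into 10 bins of 520 or 521 cells in the septal explants and 994 or 995 in the telencephalic vesicle. The summed level of all channel genes in the septal explants stayed between 136.3 and 155.0 CPM over the first 7 bins and then reached 193.7, 270.4 and 312.8 CPM. It ran from 579.0 CPM in the first bin of the telencephalic vesicle to 855.2 in the ninth and 1530 in the last. *Kcnc1* in the septal explants lay between 0.13 and 1.49 CPM in the first 7 bins and reached 5.29, 11 and 12.7 CPM. *Kcnk5* ran the other way, from 8.62 CPM in the seventh bin to 2.22, 0.83 and 0.76. *Kcnh2* was higher from the early bins on, from 6.41 CPM in the first bin to 13.6 in the fifth and 26.3 in the eighth, and stood at 22.3 in the last. Progenitor clusters of different regions also lay apart on this axis. In the septal explants its median was -3.08 in the hem-like and -3.06 in the pallial-like cluster, and from -2.10 to -1.65 in subpallial-like clusters. Hem-like clusters of the telencephalic vesicle lay at -3.06, -3.36 and -3.51. Differences between early bins can thus hold a change in the mix of regions, and this was not tested.

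Some genes peaked before the last bin. In the septal explants, *Kcnn2* reached 8.19 CPM in the eighth bin against 1.52 in the first and 4.28 in the last, and *Kcnk12* 2.90 against 0.47 and 1.38. BP-like cells of the septal explants came from 3 clusters that were not alike. In those led by *Neurog2*, *Neurog1* and *Eomes* (191 and 138 cells), *Kcnn2* stood at 13.7 and 16.7 CPM, against 1.67 in APs and 4.72 in neurons. The remaining cluster, of 217 cells, was led mostly by neuronal genes such as *Onecut2*, *Isl1* and *Nefl* and lay as far along the axis as neurons, and it held *Kcnn2* at 2.33 CPM. *Kcnmb2* was the reverse, at 13.5 CPM in that cluster and 0.91 and 1.26 CPM in the other two, so neither value stands for BP-like cells as a whole. In the telencephalic vesicle, *Kcnq3* reached 50.8 CPM in the eighth bin against 15.6 in the first and 23.0 in the last, and *Kcnip3* 23.8 CPM in the ninth against 3.75 and 11.7. *Kcnd2* was lowest in the middle of the late bins there, 120.2 and 120.6 CPM in the eighth and ninth, between 280.6 in the fourth and 257.1 in the last.

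**Figure D3:**
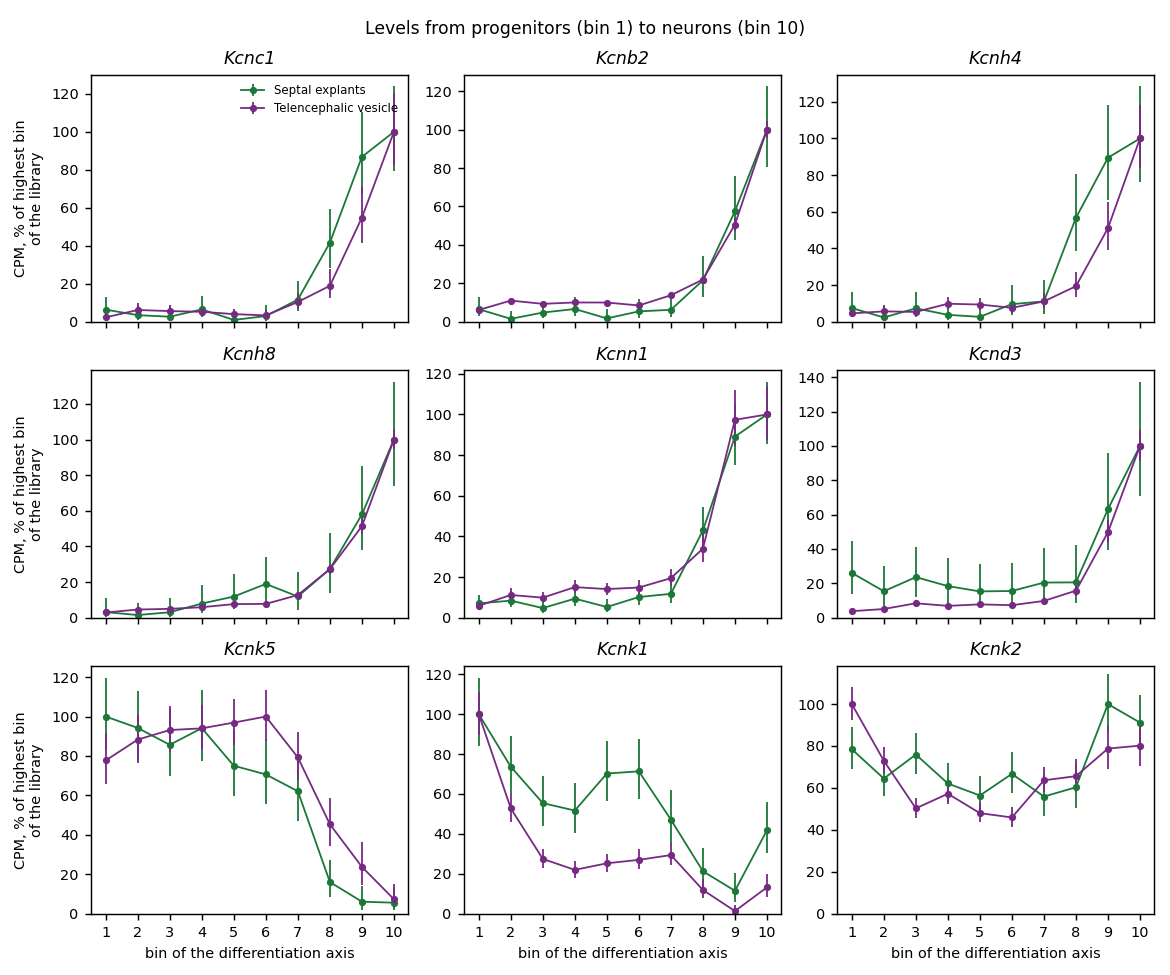
Level of 9 channel genes along the differentiation axis in 10 bins of equal cell number, as percent of the highest bin of the same library, for septal explants and the telencephalic vesicle, with genes picked after their values were seen. Bars are exact 95% counting intervals. In both libraries *Kcnc1* has its highest level in the last bin and *Kcnk5* its lowest, while *Kcnk2* is lowest in middle bins.

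The neuron types differed from each other. Cajal-Retzius-like neurons, which secrete reelin, had the highest summed level in the septal explants, 447.5 CPM (422.2 to 473.9), against 228.8 (210.2 to 248.7) in GABAergic-like and 249.1 (234.1 to 264.9) in pallial glutamatergic-like neurons. Of this sum, *Kcne1l* alone made up 114.1 CPM, 10.0 times (8.06 to 12.54) its level in the other neurons (11.4 CPM). *Kcne1l* was also 4.55 times higher (3.19 to 6.45) in Cajal-Retzius-like than in other neurons of the telencephalic vesicle. *Kcnk2* shared this pattern, with 72.2 CPM against 24.2 in other neurons of the septal explants (ratio 2.98, 2.45 to 3.62) and 69.5 against 27.2 in the telencephalic vesicle (2.56, 2.03 to 3.20). So did *Kcnc1*, at 33.8 against 7.92 CPM (4.27, 3.12 to 5.85) and 20.1 against 9.63 (2.08, 1.35 to 3.14). In the telencephalic vesicle, where Cajal-Retzius-like cells reached 1061 CPM (1009 to 1114), their summed level was below that of GABAergic-like neurons at 1348 (1318 to 1379), so the order of the types was not the same. These cells may not be at the same point of differentiation in both libraries. In the septal explants they were a cluster of 165 cells at a median of 3.15 on the differentiation axis and a cluster of 53 cells at 2.42. In the telencephalic vesicle they were a cluster of 191 cells at 2.27, with a higher mean z score for BP than for neuron markers (1.77 against 1.46). The cluster of 53 cells scored alike (1.42 against 0.741), and that of 165 did not (0.424 against 1.69).

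Pallial glutamatergic-like neurons held *Kcng1* at 11 CPM against 1.63 in other neurons of the septal explants (ratio 6.74, 3.63 to 13.3) and at 8.84 against 1.75 in the telencephalic vesicle (5.05, 2.75 to 9.79). *Kcnh7* was 2.81 times (1.94 to 4.09) and 2.0 times higher (1.80 to 2.22) in them. *Kcnn2* was 6.29 times higher (3.44 to 12.2) in these neurons of the septal explants, with 27.2 CPM in a cluster of 108 cells and 2.25 in one of 232. *Kcnb2* in the telencephalic vesicle reached 333.7 CPM in pallial glutamatergic-like and 64.3 in GABAergic-like neurons.

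GABAergic-like neurons of the telencephalic vesicle held more *Kcnd2*, at 415.0 CPM against 72.3 in other neurons (ratio 5.74, 5.24 to 6.30), and more *Kcnh1*, at 10.1 against 2.76 CPM (3.64, 2.18 to 6.27). *Kcnd2* was uneven among them, at 620.8 CPM in a cluster of 366 cells and 185.8 in a cluster of 348. The former cluster lay above the level of *Kcnd2* in APs of that library and the latter below it. *Kcnh2* stood out in GABAergic-like neurons of the septal explants, at 64.6 CPM against 10.9 (5.93, 4.62 to 7.62), in 96 of 224 cells. *Kcnb2* was low in them, with 0.823 CPM against 12.9 (0.0636, 0.00762 to 0.234), and in the telencephalic vesicle it was 0.219 times (0.195 to 0.245) its level in other neurons.

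**Figure D4:**
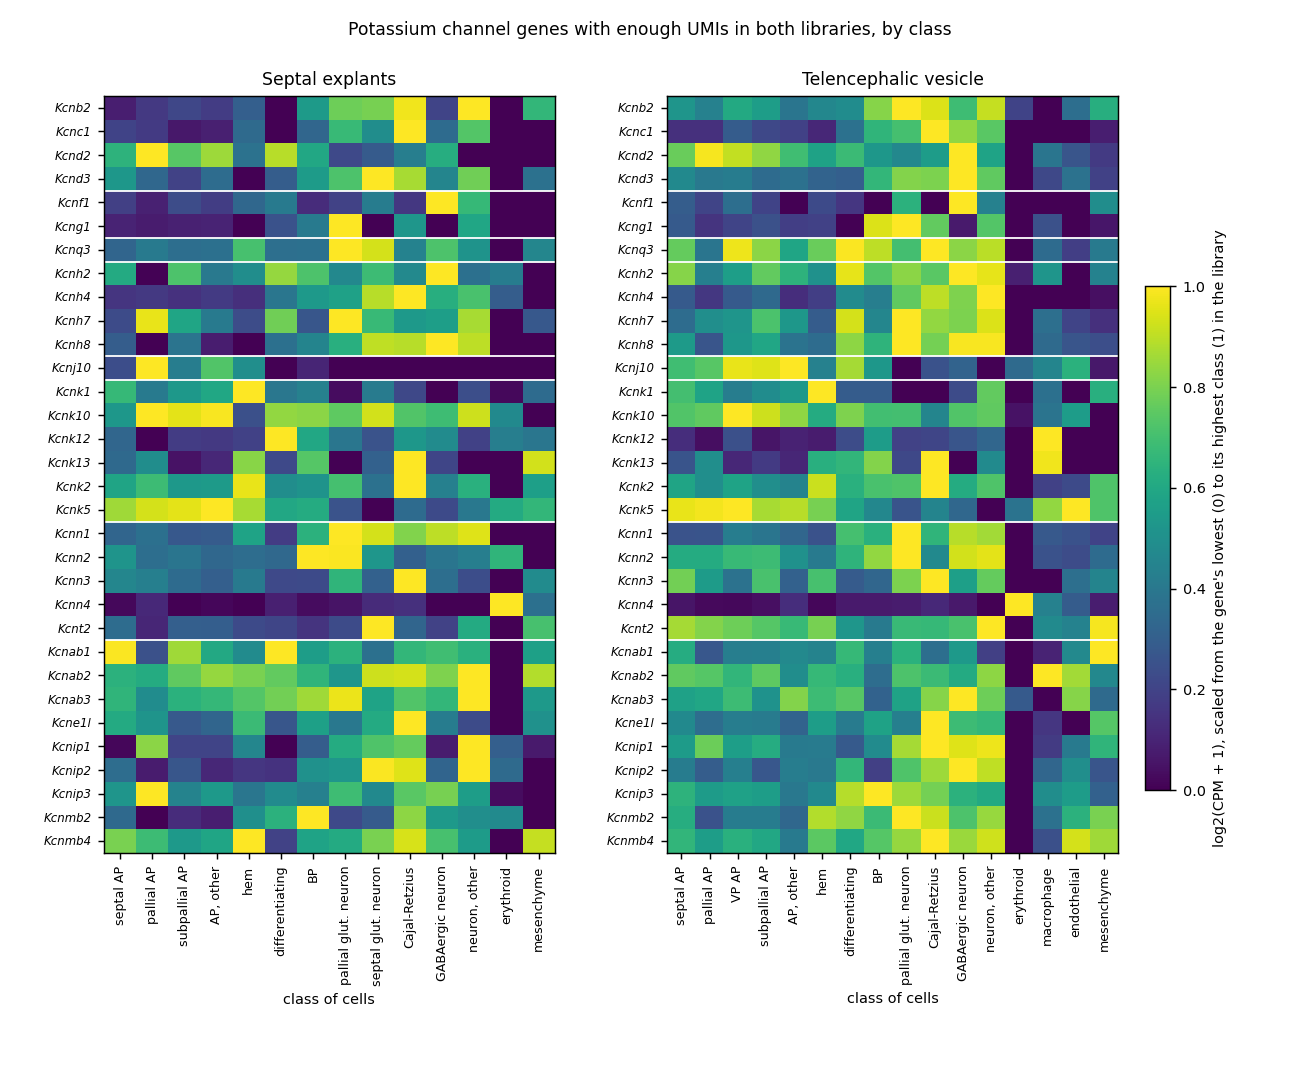
Level of 32 channel genes with at least 50 UMIs in both libraries across cell classes of each library, with genes in rows, classes in columns and colour for log2(CPM + 1) scaled from the lowest (0) to the highest class (1) of the gene in that library. Differentiating cells are progenitor-like clusters past the limit on the differentiation axis, counted neither with APs nor with neurons. Among neuron types, *Kcne1l* and *Kcnk2* are strong in Cajal-Retzius-like cells and *Kcng1* in pallial glutamatergic-like neurons, and outside the neural classes *Kcnn4* is highest in erythroid-like cells.

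The AP regions differed as well. Pallial-like APs of the septal explants were 1 cluster of 299 cells, and the other APs there included 1433 cells of no named region. Some clusters of the latter had *Pax6* or *Lrrn1* among their leading genes. *Lrrn1* was also a leading gene of the pallial-like clusters of the telencephalic vesicle, so pallial-like APs may not be the same cells in the 2 libraries. *Kcnh2*, the ERG1 gene, was low in pallial-like APs in both libraries, at 1.25 against 13.8 CPM in other APs of the septal explants (ratio 0.0903, 0.0330 to 0.198) and at 3.17 against 10.5 in the telencephalic vesicle (0.302, 0.243 to 0.371). In subpallial-like APs it was 2.65 times (2.26 to 3.11) and 1.63 times higher (1.44 to 1.85). *Kcnip1* was 6.41 times higher (4.46 to 9.15) in pallial-like APs of the septal explants and 1.78 times (1.59 to 1.99) in those of the telencephalic vesicle. *Kcnk10* was low in septal-like APs, at 3.32 against 14.2 CPM (0.233, 0.161 to 0.328) and at 79.7 against 144.9 (0.550, 0.522 to 0.578). *Kcna5*, the Kv1.5 gene, was 7.78 times higher (4.15 to 15.2) in septal-like APs of the septal explants, and *Kcnh5* 3.82 times (3.31 to 4.40) in those of the telencephalic vesicle.

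*Kcnip4* differed between AP regions of the telencephalic vesicle. It reached 154.6 CPM in ventral pallium (VP)-like APs against 22.0 in other APs, a ratio of 7.01 (6.63 to 7.42), with at least 1 UMI in 379 of 913 cells. Most of this came from 1 cluster of 391 cells at 251.6 CPM, beside 43.8 CPM in the other VP-like cluster of 522 cells, and *Kcnip4* was among the leading genes of the former although it had been left out of the clustering. It was also a leading gene of a cluster of 390 APs of no named region at 83.3 CPM, and stood at 50.7 CPM in a subpallial-like cluster of 395 cells, so high levels were not limited to VP-like APs. *Kcnq3* was 2.40 times higher (2.21 to 2.61) in VP-like APs, and *Kcnk10* reached 213.5 CPM in them.

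Hem-like cells were counted apart from APs. *Kcnk1* stood at 34.8 CPM (27.2 to 43.8) in hem-like cells of the septal explants, 4.16 times (3.21 to 5.31) its level in all other kept cells, and at 24.0 CPM (22.1 to 26.0) in those of the telencephalic vesicle, 5.42 times (4.84 to 6.06). The latter came from 3 clusters at 8.04, 25.9 and 43.6 CPM, of which the last (356 cells) was led by genes such as *Trpm3* and *Ttr*, known from choroid plexus, with *Rspo2* as the only *Wnt* or *Rspo* gene among its 10 leading genes. *Kcnk2* stood at 66.2 CPM (55.6 to 78.3) and 55.2 CPM (52.3 to 58.2), above the 22.1 and 17.3 CPM of APs, and the 3 clusters of the telencephalic vesicle held it at 52.5, 62.2 and 44.3 CPM. *Kcna5* was 19.9 times higher (12.4 to 31.3) than in other cells of the septal explants. With hem-like cells counted as APs, an alternative chosen after seeing the data, *Kcna5* became lower in neurons (ratio 0.428, 0.179 to 0.885), as it did with classes cut by the differentiation axis alone (0.218, 0.0678 to 0.546).

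Outside the neural classes, *Kcnn4*, the intermediate conductance channel (Gardos channel) of red cells, stood at 63.1 CPM (46.2 to 84.2) in 26 erythroid-like cells of the septal explants and at 86.3 CPM (76.0 to 97.7) in 401 of the telencephalic vesicle. It was 0.116 CPM (0.0426 to 0.253) and 0.2 CPM (0.127 to 0.300) in APs. In 22 endothelial-like cells of the telencephalic vesicle, *Kcne3* stood at 174.2 CPM (145.5 to 206.8) and *Kcnq1*, whose product it binds, at 68.3 CPM (50.9 to 89.9). These channels were near 0 in APs, *Kcne3* with 3 UMIs and *Kcnq1* with 33. *Kcnq1* overlaps 8 other genes on its strand.

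The share of cells with a UMI was read beside erythroid-like cells, which should lack neuronal channels. *Kcnk2* was found in 25.9% of APs (24.4 to 27.5%) and 26.8% of neurons (24.1 to 29.6%) of the septal explants, and in 16.2% and 21.4% after thinning. In erythroid-like cells, 2 of 26 held it (7.69%) at a median depth of 29046 UMIs. *Kcnd2* was found in 67.3% of APs (66.1 to 68.5%) and 32.3% of neurons (30.1 to 34.5%) of the telencephalic vesicle, and in 43.0% and 23.8% after thinning. In 401 erythroid-like cells at a median of 5432 UMIs, it was found in 3.49%, and in 1.12% after thinning. *Kcnc1* was found in 13.6% of neurons and 0.795% of APs of the septal explants, and in 7.26% and 1.475% in the telencephalic vesicle. No erythroid-like cell held it, and at 3 counts of the total this allows a share of cells with a UMI of up to 11.54% of the 26 and 0.748% of the 401, which sets no limit on expression.

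Genes with profiles most like that of the channel gene with the most UMIs were sought over classes, by Pearson's r of log2(CPM + 1), as a description over classes that share a library. For *Kcnk2* over 14 classes of the septal explants they were *Sik2* (0.947), *Zadh2* (0.917) and *Rnf149* (0.899), and *Kcnn3* (0.770) among the channel genes. For *Kcnd2* over 16 classes of the telencephalic vesicle they were *Lsamp* (0.962), *Eif5* (0.915) and *Scrn1* (0.915), and *Kcnk10* (0.836) among the channel genes.

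Other ion channel families were compared in the same way, from lists chosen by family, against the same shares of all genes (18.1% higher and 16.3% lower, and 17.9% and 17%). Of voltage-gated sodium channel genes, which drive the upstroke of the action potential, 5 of 9 were higher in neurons and 1 lower in the septal explants, and 6 of 10 and 1 in the telencephalic vesicle. *Scn3a*, the embryonic form, was 11.3 times (9.86 to 12.9) and 24.1 times higher (22.3 to 26.0). Of calcium channel genes, 8 of 12 were higher and 1 lower (*Cacnb2*), and 13 of 15 and 1. Of hyperpolarisation-activated (HCN) and leak channel genes, 1 of 2 and 3 of 5 were higher and none lower. Of proteins that assemble with potassium channels, 2 of 3 and 3 of 6 were higher and none lower. *Dpp6*, a partner of Kv4 channels, was 6.02 times (4.68 to 7.78) and 3.94 times higher (3.75 to 4.14). Genes of the sodium-potassium pump, which maintains the potassium gradient, were taken as 1 list with 2 cotransporter genes (*Slc12a2* and *Slc12a5*). Of this list, 2 of 7 were higher and 2 lower in the septal explants, and 3 of 8 and 2 in the telencephalic vesicle.

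In the septal explants, cells with a tdTomato UMI (216 APs and 90 neurons) and cells with at least 3 YFP UMIs (1868 and 569) were compared. They were taken to come from embryos of different genotype and stage. A single reporter UMI can also come from RNA of another cell, and how well these limits part the embryos was not tested. Since tdTomato marks only the *Dbx1* lineage and YFP all cells, lineage and mix of cell types can differ as well. None of these can be told apart. *Kcnh7* was higher in the former among APs (5.97 against 2.47 CPM, ratio 2.42, 1.42 to 3.97) and among neurons (13.9 against 5.51 CPM, ratio 2.53, 1.36 to 4.53). *Kcng1* was higher among neurons, at 11.6 against 2.40 CPM (ratio 4.83, 2.25 to 10.3). Both genes were also higher in pallial glutamatergic-like neurons, and the part of the mix of types in these ratios was not tested. They were not the only genes whose interval left out 1 among the 38 compared in APs and in neurons. Others were *Kcnip3* among APs (ratio 1.72, 1.13 to 2.54), and *Kcnn2* (3.52, 1.34 to 8.73) and *Kcnq3* (4.26, 1.35 to 12.9) among neurons. *Kcnn2* and *Kcnq3* were also higher in pallial glutamatergic-like neurons of the septal explants. Not all are named here, and the share of all genes that would be picked is not given.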

How the data were processed

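Single cell RNA counts of septal explants and of the telencephalic vesicle were used, 1 pooled library each. The authors deposited raw counts, the UMIs per gene and barcode without normalisation. Per the submitters' processing notes and the file headers, Cell Ranger 2.1.1 made those of the septal explants (10x Genomics kit version 2, mm10 with reporter sequences added) and Cell Ranger 7.1.0 those of the telencephalic vesicle (kit version 3.1, mm10). Whether intronic reads were counted is not given in the sources used here for the latter. That could raise the counts of long genes. The libraries were loaded with about 10000 and 20000 cells.

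As in the study, barcodes whose mitochondrial share lay over 3 MAD from the median were dropped, and doublets were removed with Scrublet (scanpy 1.11.5, expected rate 0.8% per 1000 barcodes). Counts were scaled to 10000 per cell, logged and clustered (2000 variable genes without potassium channel, 95 cell cycle, sex-linked and reporter genes, 30 principal components, 15 neighbours, Leiden resolution 1.5, igraph 0.11.9). A marker list could name a cluster if at least 3 markers were in 5% of cells, at 1.5 times the mean of other clusters. It was passed over where the 10 leading genes held more markers of an unrelated class. Among the broad classes left the highest mean z score decided, and APs then took a region name at a score of at least 0.5. The pallial glutamatergic-like cluster of 232 cells in the septal explants was weakly named. Its mean z score was 0.805 for that list and 0.808 for BP markers, and *Barhl2*, *Calb2* and *Ebf1* were leading genes beside *Tbr1*. Limits on the axis of differentiation (-1 for progenitors), on *Trp73* for Cajal-Retzius-like cells and on neuronal against progenitor scores were added after the clusters were seen. Of 31 and 29 clusters, 1 (113 cells) and 2 (918 cells) stayed unnamed. A mesenchyme-like cluster of 45 cells in the septal explants was also led by macrophage genes, and 67 of the 227 neuron-like cells of no named type in the telencephalic vesicle had a median of 1124 UMIs.

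UMIs were summed per class and scaled to CPM. A gene with at least 50 UMIs in a library counted as higher or lower in neurons at a ratio of at least 2 or at most 0.5 whose exact 95% interval left out 1. This is no test, since cells of 1 library are not replicates. The calling step was tested on simulated data with counting error only. They held no spread between cells, clusters or embryos, so the calls were not checked against such spread. The genes, lists and rules were chosen with earlier results of these data known. Genes were named by rule: in each library the 8 with the highest CPM, up to 10 higher and 10 lower by ratio, 2 per class by ratio to all other cells with at least 20 UMIs there, those next to the 50 UMI minimum and the 3 genes most like the leading one. Others stand with their family and were named after their values were seen. Some genes are not reported here by name or drawn, but entered the counts and sums. Gene coordinates are those of GRCm38. Scripts ran in Python 3.11.15 with scipy 1.17.1, pandas 2.3.3, matplotlib 3.10.9 and numpy 2.4.6.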

Additional observations from a re-analysis of the deposited data

Results flagged for a closer look

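For 5 channel genes, the level in a class relative to the rest of its kind lay on opposite sides of 1 in the 2 libraries, with counting intervals that leave out 1 in each and a fold of at least 2 in at least 1 of them. These came from a screen of all channel genes tested in both libraries, over each AP region and neuron type that both held. The number of contrasts screened and the share of all genes that would be picked are not given here. Whether channel genes differ from other genes in this was not determined. The difference between the libraries was not tested, since each is 1 sample. Tissue, age, kit, counting and the make-up of the classes cannot be told apart. Pallial-like APs of the septal explants were 1 cluster of 299 cells, set against other APs that included 1433 cells of no named region, some in clusters led by *Pax6* or *Lrrn1*. *Kcnh7* in pallial-like APs stood at 6.14 times the level of other APs in the septal explants (4.53 to 8.26) and at 0.567 times in the telencephalic vesicle (0.515 to 0.623). *Kcnj10* in the same class stood at 2.48 times (1.27 to 4.52) and 0.661 times (0.533 to 0.815). In GABAergic-like neurons, *Kcnd3* stood at 0.345 times the level of other neurons (0.0905 to 0.942) in the septal explants and at 2.38 times (2.02 to 2.80) in the telencephalic vesicle. In pallial glutamatergic-like neurons, *Kcnq3* stood at 2.21 times (1.10 to 4.47) and 0.553 times (0.432 to 0.702), and *Kcnh8* at 0.440 times (0.222 to 0.808) and 1.19 times (1.08 to 1.31).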

How the results depend on the processing

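No paired analysis was possible because each tissue is 1 library without replicates. Under 15 alternatives, the number of channel genes higher in neurons ranged from 15 to 33 (septal explants) and from 21 to 38 (telencephalic vesicle), and the number lower from 4 to 6 and from 6 to 9, all within 1.5 times of the counts given. The number of genes tested changed with the minimum of UMIs, so these counts are over unlike totals. The highest counts came with no minimum of UMIs, which, like hem-like cells counted as APs, was chosen after seeing the data. They were 33 and 38 of 92 genes, against 3057 of 28001 and 3874 of 32286 of all genes. A fold of 3 gave 15 of 38 and 21 of 58, against 1375 of 13163 and 1861 of 16900. A minimum of 100 UMIs gave 15 of 28 in the septal explants, against 2091 of 12169. Without Cajal-Retzius-like cells, *Kcne1l* in the septal explants went to a ratio of 0.996, and the summed ratio of all channel genes to 1.82 there and 1.64 in the telencephalic vesicle. The mean of CPM over cells gave a summed ratio of 2.0 in the septal explants. The summed ratio of the telencephalic vesicle was 1.57 over all deposited barcodes, 1.43 with doublets kept, 1.65 after thinning, 1.67 with classes cut by the differentiation axis alone and 1.72 with hem-like cells counted as APs. The last over the first bin was 1.77 with 5 bins and 3.32 with 20 there, against 2.64 with 10. For all genes, a fold of 1.5 gave 3669 higher in the septal explants, and a fold of 3 gave 1375 higher and 1340 lower there and 1861 and 1690 in the telencephalic vesicle. Shares of cells with *Kcnk2* went to 16.2% of APs and 21.4% of neurons after thinning, and to 6.60% and 9.62% for at least 2 UMIs. Those with *Kcnd2* went to 43.0% and 23.8%, and to 52.8% and 20.2%. Unthinned cells of the telencephalic vesicle showed 5.62 channel genes in APs, 3.17 in BPs and 4.95 in neurons. With doublets kept, *Kcna6* (1.9998), *Kcnk1* (0.534), *Kcnip1* (1.76) and *Kcnj14* (0.86) were no longer called in the telencephalic vesicle. Of the ratios of single genes over all alternatives, 983 kept their direction and side of the limits, 25 were no longer called, 17 became called and 1 turned. Where no value shows a cause, it was not tested. Depth limits weakly expressed genes, and no ratio has a replicate check.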
